A study of Mus musculus with 6 samples.

Results

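The 10 core genes of the circadian clock, Clock, Arntl, Per1, Per2, Per3, Cry1, Cry2, Nr1d1, Nr1d2 and Dbp, were followed in mouse CAD cells after knockdown of the circular RNA circGigyf2. They were taken by gene symbol, and each had 1 row among the 24318 genes of the table. CAD is an established mouse cell line of catecholaminergic neuronal origin. The siCircGigyf2 group held 3 libraries from cells given an siRNA against circGigyf2, a circle made by back-splicing of Gigyf2 exons, and the siNC group held 3 libraries from cells given a control siRNA. All 6 libraries came from total RNA depleted of ribosomal RNA. No label gives a genotype, the hours after transfection, the hour of harvest or any step that would set the cells' clocks to a common phase. The labels do not say whether the replicates of a group came from different cultures, so each p-value reflects only how far these 6 libraries scatter, and that scatter may be technical.

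The circadian clock of mammals is a transcriptional feedback loop. CLOCK and BMAL1, the protein of Arntl, pair up and bind E-boxes in the promoters of the Per, Cry, Nr1d1, Nr1d2 and Dbp genes, and the PER and CRY proteins then hold that pair back. In a second loop the REV-ERB proteins, encoded by Nr1d1 and Nr1d2, repress Arntl and Clock through ROR elements, while the ROR receptors activate them, and DBP acts on D-boxes. In a dish, cells that have not been set to a common phase keep their own time, so a whole culture reads as an average over phases.

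The promoters of the clock genes are shown because the loop is usually described through the motifs they carry. RefSeq windows on build GRCm38.p6, from 250 bases before to 50 bases after a start site, were found for 9 of the 10 genes. Stretches before the start site are printed 5′ to 3′ on the gene's own strand. Capitals mark CACGTG, the canonical E-box, CACGTT, a close variant of it, TTATGTAA, a D-box, and AGGTCA, the core of a ROR element, each read on either strand, and the marked motifs do not overlap one another. The Clock stretch holds none of them.
Clock, chr5:76304793-76304872, minus strand: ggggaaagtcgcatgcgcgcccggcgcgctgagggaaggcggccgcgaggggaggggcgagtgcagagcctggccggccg
Per1, chr11:69098763-69098837, plus strand: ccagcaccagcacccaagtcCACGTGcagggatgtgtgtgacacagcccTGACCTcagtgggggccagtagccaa
Per3, chr4:151044796-151044890, minus strand: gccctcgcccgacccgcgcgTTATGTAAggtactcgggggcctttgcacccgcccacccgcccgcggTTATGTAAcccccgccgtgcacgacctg
Cry1, chr10:85185089-85185153, minus strand: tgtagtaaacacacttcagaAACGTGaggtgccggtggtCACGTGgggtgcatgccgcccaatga
Cry2, chr2:92434210-92434255, minus strand: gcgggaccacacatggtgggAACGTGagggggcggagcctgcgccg
Nr1d1, chr11:98775380-98775425, minus strand: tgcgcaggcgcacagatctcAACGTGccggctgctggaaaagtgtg
Nr1d2, chr14:18239158-18239203, minus strand: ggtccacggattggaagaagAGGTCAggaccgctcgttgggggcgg

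CACGTG was found in the windows of 2 clock genes, Per1 and Cry1, and in 8.09% of the windows of 27025 genes. CACGTT was found in 3, Cry1, Cry2 and Nr1d1, against 5.44% of all genes. For Cry2 and Nr1d1 the bases just after the RefSeq start site were not found in a GENCODE transcript of the gene, so their start sites are less certain. TTATGTAA was found in Per3 alone among the clock genes, at 2 places, against 1.11% of all genes, and the other D-box searched, TTACGTAA, in none of them, against 0.126%. AGGTCA was found in 4, Per1, Nr1d2, Arntl at an alternative annotated start site and Clock at an alternative one, against 18.1% of all genes. TGACGTCA, the cAMP response element bound by CREB, was found in none, against 2.03%. The Dbp window held none of these motifs. A match describes letters in a window and is not a measured site.

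In these cells the clock genes were higher after circGigyf2 knockdown or did not pass the test, and none fell. Among the genes that passed, Clock was at 1.38 times its control level, Dbp at 1.28 times and Nr1d1 at 1.17 times. Those 3 of the 10 genes rose at an adjusted p of 0.05 or less, by limma on log2(FPKM + 1) with Benjamini-Hochberg adjustment over the 11420 genes whose FPKM averaged 1 or more, and the other 7 did not pass. FPKM are fragments per kilobase of transcript, scaled to the mapped fragments of a library. A difference here is the siCircGigyf2 mean of log2(FPKM + 1) less the siNC mean, a scale on which the changes of weakly expressed genes look smaller than they are. The knockdown was accompanied by changes in much of the transcriptome, with 38.2% of all genes tested past the same threshold, 19.5% higher and 18.7% lower. The share of clock genes that passed, 3 of 10, is near that background, so the count does not set them apart. In bulk RNA, fewer cells expressing a gene and less RNA per cell cannot be told apart.

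**Figure D1:**
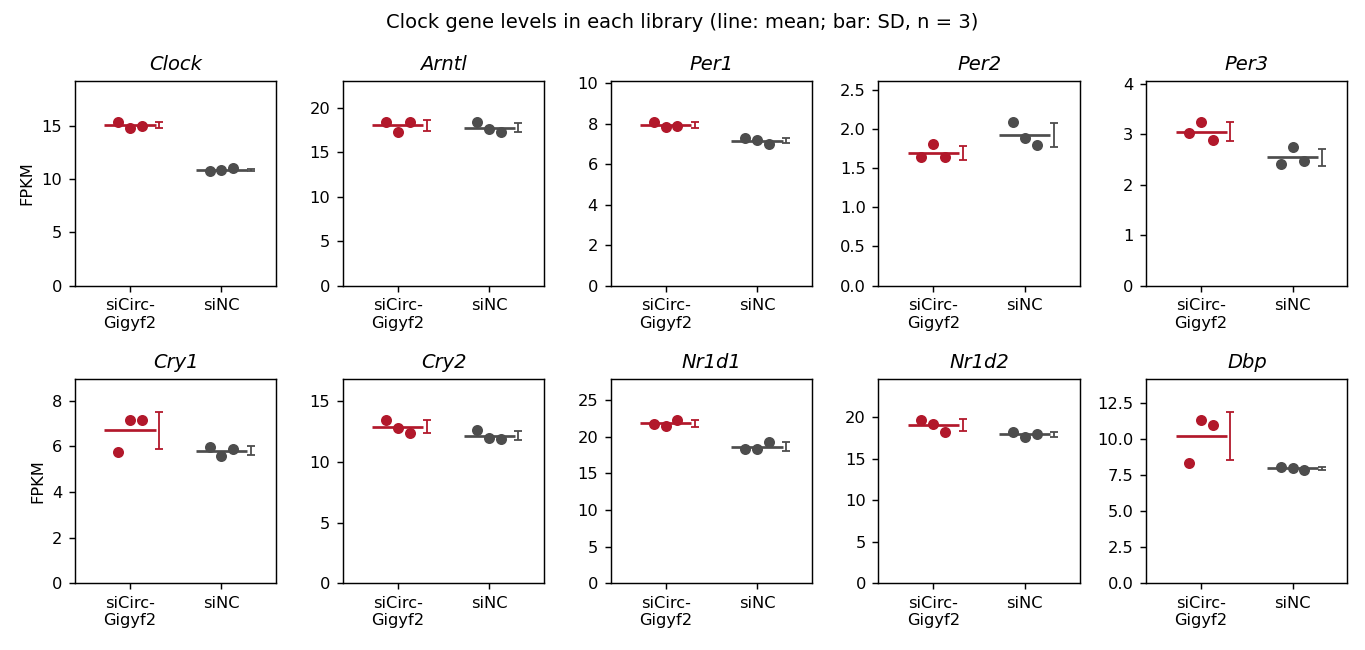
FPKM of the 10 clock genes in each library, with the 3 siCircGigyf2 libraries left of the 3 siNC libraries in each panel a line at each group's mean and a bar for its SD (n = 3). The siCircGigyf2 libraries lie above every siNC library for Clock, Per1, Per3, Nr1d1 and Dbp, and the groups overlap for the other genes.

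The activating pair split. Clock, the basic helix-loop-helix partner that carries the acetyltransferase activity of the pair, had 15.4, 14.8 and 15.0 FPKM in the siCircGigyf2 libraries, against 10.8, 10.9 and 11.0 FPKM in the siNC libraries. The groups lie far apart and each is tight, with means of 15.1 ± 0.291 FPKM in siCircGigyf2 and 10.9 ± 0.110 FPKM in siNC (SD, n = 3 each). The log2 difference of Clock was 0.43 (SE 0.039, 95% interval 0.35 to 0.52, limma adjusted p = 7.8e-05), larger in size than that of 95.2% of all genes tested. Arntl, whose protein BMAL1 is the obligate partner of CLOCK, had 18.4, 17.3 and 18.4 FPKM in the siCircGigyf2 libraries and 18.4, 17.6 and 17.3 FPKM in the siNC libraries. Its groups overlap, and its difference of 0.02 has a 95% interval of -0.08 to 0.11 (limma adjusted p = 0.748), which lies below the interval of Clock. The Clock to Arntl ratio of FPKM was 0.835, 0.854 and 0.818 in siCircGigyf2 and 0.587, 0.617 and 0.635 in siNC. These ratios do not overlap, at 0.836 ± 0.018 in siCircGigyf2 and 0.613 ± 0.0245 in siNC (SD, n = 3 each; exact two-sided permutation p = 0.1, the smallest that 3 against 3 allows, and 0.15 adjusted over the 6 ratios computed between related genes). The ratios were chosen after the values were seen.

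The paralogs of the pair were close to absent. Npas2, which can stand in for Clock, was listed at 0 in all libraries except siCircGigyf2 replicate 1, at 0.0251 FPKM. Arntl2, the second BMAL gene, had 0.347, 0.358 and 0.249 FPKM in siCircGigyf2 and 0.392, 0.408 and 0.534 FPKM in siNC. Both lie under the filter of 1 FPKM and were not tested.

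**Figure D2:**
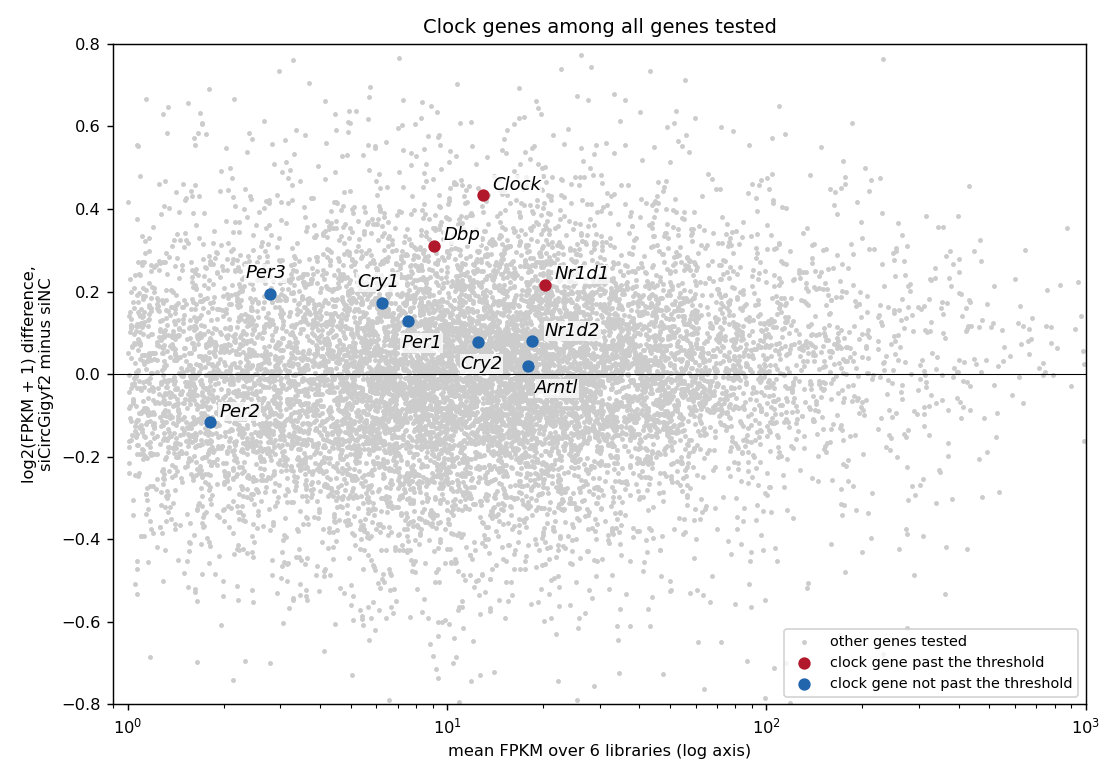
Log2(FPKM + 1) difference, siCircGigyf2 minus siNC, against the mean FPKM over the 6 libraries on a log axis, for all genes tested (grey) and the 10 clock genes (coloured); 130 genes lie beyond 0.8 in either direction or above 1000 FPKM and are not drawn. Clock stands toward the edge of the cloud, and Arntl, Cry2 and Nr1d2 lie near its centre.

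None of the 5 PER and CRY repressor genes passed the test. The groups did not overlap for 2 of them, against 51.0% of all genes tested. Per1, a rapidly inducible PER gene that also answers to cAMP and glucocorticoid signals, had 8.08, 7.83 and 7.88 FPKM in siCircGigyf2 and 7.30, 7.19 and 7.01 FPKM in siNC. All siCircGigyf2 values are above all siNC values, by a difference of 0.13 (SE 0.046, 95% interval 0.02 to 0.23, limma adjusted p = 0.0544). Per3, the PER gene least needed for rhythm in mice, had 3.02, 3.24 and 2.87 FPKM in siCircGigyf2 and 2.41, 2.74 and 2.46 FPKM in siNC. It too did not overlap, at a difference of 0.19 (SE 0.072, 95% interval 0.03 to 0.36, limma adjusted p = 0.0627). Per1 and Per3 passed after quantile normalization (limma adjusted p = 0.0334 for Per1 and 0.0387 for Per3) and in a fit without a variance trend (adjusted p = 0.0289 for Per1 and 0.0287 for Per3).

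Per2, the PER gene whose loss shortens or abolishes rhythm in mice, was the 1 clock gene with a negative difference. It had 1.64, 1.80 and 1.64 FPKM in siCircGigyf2 and 2.09, 1.89 and 1.79 FPKM in siNC. Its groups overlap by a single library, and its difference of -0.12 has a 95% interval of -0.29 to 0.06 (limma adjusted p = 0.270). It is the least abundant of the 10, and with a pseudocount of 0.1 in place of 1 its difference was -0.17. The Per1 to Per2 ratio was 4.69 ± 0.305 in siCircGigyf2 and 3.74 ± 0.217 in siNC, and the Per3 to Per2 ratio was 1.80 ± 0.049 in siCircGigyf2 and 1.33 ± 0.153 in siNC (SD, n = 3 each). Neither ratio overlaps between groups (exact two-sided permutation p = 0.1 for each, adjusted p = 0.15 for each), and both share Per2 as their denominator.

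The cryptochromes, the stronger repressors of CLOCK and BMAL1, overlapped between groups. Cry1 had 5.77, 7.17 and 7.17 FPKM in siCircGigyf2 and 5.99, 5.58 and 5.88 FPKM in siNC. The first siCircGigyf2 library sits within the siNC range and the other 2 sit above it. The difference of Cry1 was 0.17 (95% interval -0.01 to 0.35, limma adjusted p = 0.116) and was 0.26 without siCircGigyf2 replicate 1 (adjusted p = 0.0121). Cry2 had 13.5, 12.8 and 12.4 FPKM in siCircGigyf2 and 12.6, 11.96 and 11.9 FPKM in siNC, with a difference of 0.08 (95% interval -0.03 to 0.18, limma adjusted p = 0.212). Cry1, which lengthens the period of the clock, and Cry2, which shortens it, kept overlapping ratios to each other, at 0.523 ± 0.082 in siCircGigyf2 and 0.479 ± 0.0136 in siNC (SD, n = 3 each; exact two-sided permutation p = 0.4, adjusted p = 0.4).

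Of the 2 REV-ERB genes, Nr1d1 rose and Nr1d2 did not pass. Nr1d1, the haem-binding nuclear receptor REV-ERB alpha, had 21.8, 21.4 and 22.3 FPKM in siCircGigyf2 and 18.4, 18.3 and 19.3 FPKM in siNC. The groups are separated by more than their own ranges, with means of 21.9 ± 0.465 FPKM in siCircGigyf2 and 18.7 ± 0.557 FPKM in siNC (SD, n = 3 each). The log2 difference was 0.22 (SE 0.038, 95% interval 0.13 to 0.30, limma adjusted p = 0.0022). Nr1d1 overlaps Thra, a thyroid hormone receptor gene on the opposite strand, and 263 of its 3077 exonic bases, or 8.55%, are shared with Thra in the GENCODE M21 annotation on GRCm38. Thra also rose, with 22.4, 24.3 and 22.8 FPKM in siCircGigyf2 and 20.3, 19.7 and 19.5 FPKM in siNC (difference 0.21, limma adjusted p = 0.00388). Whether the counting used strand is not given in the sources used here, so reads from the shared bases cannot be told apart.

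Nr1d2, which encodes the closely related REV-ERB beta, had 19.7, 19.1 and 18.2 FPKM in siCircGigyf2 and 18.2, 17.6 and 18.0 FPKM in siNC. The lowest siCircGigyf2 library meets the highest siNC library, and the difference was 0.08 (95% interval -0.01 to 0.17, limma adjusted p = 0.152). The Nr1d1 to Nr1d2 ratio was 1.15 ± 0.066 in siCircGigyf2 and 1.04 ± 0.0331 in siNC (SD, n = 3 each; exact two-sided permutation p = 0.1, adjusted p = 0.15).

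Dbp, a PAR bZIP factor that carries clock time to D-box genes of metabolism, had 8.36, 11.4 and 11.0 FPKM in siCircGigyf2 and 8.07, 8.01 and 7.89 FPKM in siNC. The siNC libraries are nearly equal, whereas the first siCircGigyf2 library lies just above them and the other 2 lie well above. The means were 10.2 ± 1.64 FPKM in siCircGigyf2 and 7.99 ± 0.0927 FPKM in siNC (SD, n = 3 each), with a log2 difference of 0.31 (SE 0.095, 95% interval 0.10 to 0.53, limma adjusted p = 0.0301). The call on Dbp was lost with no filter on low values (limma adjusted p = 0.0867), with no variance trend (0.0507) and when any 1 library other than siCircGigyf2 replicate 1 was left out (0.0623 to 0.0962), and without that replicate the difference was 0.44 (adjusted p = 0.000828). Dbp shares 539 of its 2993 exonic bases, or 18.0%, with Sphk2, a sphingosine kinase gene on the opposite strand. Sphk2 had 8.32, 9.60 and 9.42 FPKM in siCircGigyf2 and 8.93, 9.28 and 8.91 FPKM in siNC, with a difference of 0.01 (limma adjusted p = 0.927). Sphk2, Dbp, Cry1 and Per2 each had their lowest siCircGigyf2 value in replicate 1. Clock, Arntl, Per1, Cry2 and Nr1d2 each had their highest siCircGigyf2 value there.

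Smaller shares of Cry2 and Arntl are covered from the other strand, 4.67% of exonic bases by D930015M05Rik and 0.439% by Gm45355. No exonic bases of Clock, the gene with the largest difference, are shared with another annotated gene.

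**Figure D3:**
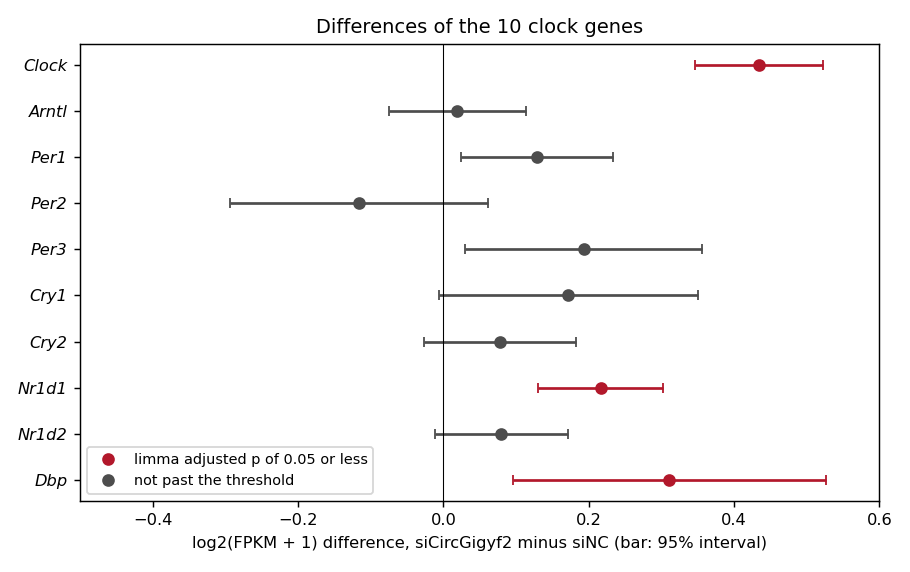
Log2(FPKM + 1) difference, siCircGigyf2 minus siNC, of each clock gene with its 95% interval from limma, ordered by role in the loop. The intervals of Clock, Nr1d1, Dbp, Per1 and Per3 lie above 0 and those of the other genes cross it.

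By direction alone, 9 of the 10 clock genes had a positive difference, against 50.1% of all genes tested, and their median difference was 0.15, against a median of 0.00035 over all genes tested. Groups did not overlap for 5 of the 10 clock genes, Clock, Per1, Per3, Nr1d1 and Dbp, which is close to the 51.0% of all genes tested. The clock genes are not independent of one another, since they regulate each other, and these counts are descriptions.

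The order of levels changed at 1 place. In siCircGigyf2 the order of mean FPKM was Nr1d1, Nr1d2, Arntl, Clock, Cry2, Dbp, Per1, Cry1, Per3 and Per2, and in siNC it was the same except that Cry2 stood above Clock. Clock exceeded Cry2 in all 3 siCircGigyf2 libraries and Cry2 exceeded Clock in all 3 siNC libraries. Nr1d2 and Arntl, neighbours in the order, overlapped in both groups. Every other pair of neighbours was separated within each group. All 10 genes passed the filter and averaged above 1 FPKM in each group. The lowest was Per2, at 1.69 FPKM in siCircGigyf2 and 1.92 FPKM in siNC. Thus none was tested only through the group in which it was high.

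Of 64 further genes of the clock pathway, all had a row and 59 were tested. Of these 17 rose, 10 fell and 32 did not pass, with a median difference of -0.02. That is 27 of 59 called, again to be read against 38.2% of all genes. The lists group them by what they do in the loop, the count of each list is likewise to be read against 19.5% higher and 18.7% lower over all genes, and the values below are means ± SD over the 3 libraries of a group.

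The ROR receptors activate Arntl and Clock through the element that the REV-ERB proteins bind. Rorb had 5.30 ± 0.142 FPKM in siCircGigyf2 and 5.52 ± 0.00898 FPKM in siNC and did not pass (difference -0.05, limma adjusted p = 0.476). Rora, at 0.510, 0.551 and 0.388 FPKM in siCircGigyf2 and 0.546, 0.446 and 0.420 FPKM in siNC, lay under the filter. Of 4 tested genes that ROR elements are known to drive, Clock rose and the other 3 did not pass.

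Further repressors of the activating pair include DEC1 and DEC2, which compete with CLOCK and BMAL1 for E-boxes. Their genes rose, and the other 2 of the 4 in their list did not pass. Bhlhe40, which encodes DEC1, was at 101.9 ± 4.30 FPKM in siCircGigyf2 and 83.7 ± 3.43 FPKM in siNC (difference 0.28, limma adjusted p = 0.000889). Bhlhe41, which encodes DEC2, was at 2.70 ± 0.151 FPKM in siCircGigyf2 and 2.09 ± 0.110 FPKM in siNC (difference 0.26, limma adjusted p = 0.0203), a call lost when any of 4 libraries was left out (adjusted p from 0.0548 to 0.0623). In a list of 17 genes known as clock targets through E-boxes or D-boxes, which includes Nr1d1, Dbp and the PER and CRY genes, 6 rose and none fell, a share of 6 in 17 against 19.5% of all genes. Beside Nr1d1, Dbp and the DEC genes these were Nampt, the rate-limiting enzyme of NAD salvage, at 80.6 ± 1.38 FPKM in siCircGigyf2 and 71.3 ± 1.24 FPKM in siNC (difference 0.17, limma adjusted p = 0.00171), and Ccrn4l, which encodes Nocturnin, at 283 ± 6.91 FPKM in siCircGigyf2 and 249.5 ± 0.588 FPKM in siNC (difference 0.18, limma adjusted p = 0.00127).

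The partners of Dbp on D-boxes did not pass. Tef, a PAR bZIP activator, was at 14.9 ± 0.400 FPKM in siCircGigyf2 and 14.2 ± 0.342 FPKM in siNC (limma adjusted p = 0.256). Hlf, another, was at 4.45 ± 0.308 FPKM in siCircGigyf2 and 4.93 ± 0.315 FPKM in siNC (limma adjusted p = 0.186). Nfil3, which represses the same elements, had a difference of -0.03 (limma adjusted p = 0.717). The Dbp to Tef ratio overlapped between groups, at 0.688 ± 0.098 in siCircGigyf2 and 0.563 ± 0.0137 in siNC (exact two-sided permutation p = 0.2, adjusted p = 0.24).

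Of 9 tested kinase genes that mark PER, CRY or BMAL1 proteins, 4 rose and none fell, against 19.5% higher and 18.7% lower over all genes tested. Gsk3b, a kinase of several clock proteins, was at 59.3 ± 1.75 FPKM in siCircGigyf2 and 49.0 ± 1.33 FPKM in siNC (difference 0.27, limma adjusted p = 0.000436). The casein kinase 2 genes Csnk2a2 and Csnk2b rose by 0.27 (limma adjusted p = 0.00332) and 0.13 (adjusted p = 0.00588). Csnk1d, a casein kinase 1 that phosphorylates PER proteins, rose by 0.10 (limma adjusted p = 0.0263), a call lost after quantile normalization (0.0579), without a variance trend (0.0663) and without any of 4 single libraries (0.0668 to 0.0831). Among 7 tested genes of ubiquitin ligases and proteases of PER and CRY, Fbxw11, whose protein targets PER for degradation, fell (difference -0.14, limma adjusted p = 0.00571) and Cul4a rose (difference 0.13, limma adjusted p = 0.0108).

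The largest difference in the wider pathway was in Timeless, a partner of PER and CRY that also acts at DNA replication forks. It had 4.44, 4.31 and 4.87 FPKM in siCircGigyf2 and 8.58, 8.74 and 8.41 FPKM in siNC. The groups are far apart, and the difference of -0.79 (limma adjusted p = 2.95e-05) is larger in size than that of 99.6% of genes tested. Tipin, which binds TIMELESS at forks, fell as well, at 12.9 ± 0.682 FPKM in siCircGigyf2 and 16.9 ± 0.717 FPKM in siNC (difference -0.36, limma adjusted p = 0.00064). In the same list of 7 partners, Dhx9 fell (difference -0.13, limma adjusted p = 0.040) and Nono rose (difference 0.10, limma adjusted p = 0.018). Both calls were lost under several alternatives, including the fit without a variance trend (limma adjusted p = 0.0755 for Dhx9 and 0.0607 for Nono).

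Corepressor genes, which REV-ERB and CRY proteins use to silence their targets, included 4 of 8 that fell, 1 that rose and 3 that did not pass, against 18.7% lower and 19.5% higher over all genes tested. Hdac1, a histone deacetylase, fell to 31.0 ± 1.11 FPKM in siCircGigyf2, against 38.3 ± 0.801 FPKM in siNC (difference -0.30, limma adjusted p = 0.000352). Tbl1xr1, a subunit of a nuclear receptor corepressor complex, fell to 11.8 ± 0.293 FPKM in siCircGigyf2, against 14.7 ± 0.205 FPKM in siNC (difference -0.29, limma adjusted p = 0.00062). Sin3a, a scaffold that PER complexes recruit, fell by 0.15 (limma adjusted p = 0.00442). The member that rose was Tbl1x, a paralog of Tbl1xr1 (difference 0.15, limma adjusted p = 0.0331), named after its value was seen. Among 5 coactivator genes, Kmt2a, a histone methyltransferase that works with CLOCK, rose (difference 0.13, limma adjusted p = 0.00902).

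Genes of the CREB route, by which signals reset Per1 in the brain's clock, included 5 that rose and 1 that fell of 11, against 19.5% higher and 18.7% lower over all genes tested. Creb1, which encodes CREB itself, rose (difference 0.25, limma adjusted p = 0.0013). The activity-induced genes Fos and Junb rose, by 0.34 (limma adjusted p = 0.00231) and 0.39 (adjusted p = 0.000362). Crtc1, a CREB coactivator, fell to 2.82 ± 0.090 FPKM in siCircGigyf2, against 3.97 ± 0.475 FPKM in siNC (difference -0.37, limma adjusted p = 0.00618). The remaining risers were Egr1 (difference 0.38, limma adjusted p = 0.00627) and Sik1 (difference 0.18, limma adjusted p = 0.0165), both named after their values were seen.

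**Figure D4:**
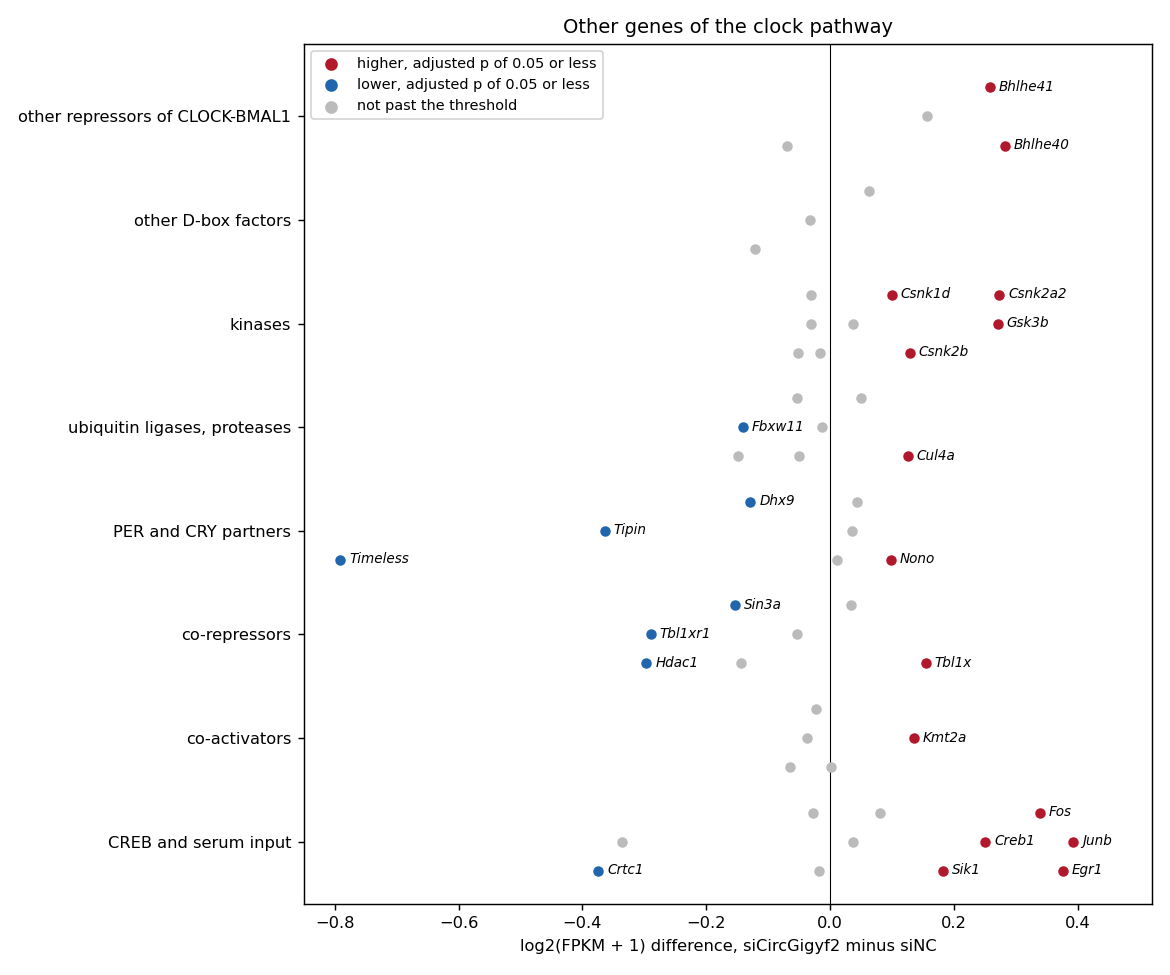
Log2(FPKM + 1) differences, siCircGigyf2 minus siNC, of the tested genes of 8 clock pathway lists that are reported here, one row per list, coloured by whether they passed the limma threshold. Timeless lies at the far left at -0.79, and in the rows of kinases and of other repressors the genes past the threshold were all higher.

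The 3 genes whose 6 values lay closest to those of Clock, among 4773 genes of similar mean FPKM, were Trp53inp1, Jph4 and Ago3. The measure was the Euclidean distance between log2(FPKM + 1) values centred on the siNC mean, 0.0540 for Trp53inp1, 0.0579 for Jph4 and 0.0613 for Ago3. Trp53inp1 was at 15.4 ± 0.724 FPKM in siCircGigyf2 and 11.2 ± 0.0858 FPKM in siNC, Jph4 at 24.0 ± 0.222 FPKM in siCircGigyf2 and 17.5 ± 0.110 FPKM in siNC, and Ago3 at 8.56 ± 0.267 FPKM in siCircGigyf2 and 5.98 ± 0.0889 FPKM in siNC (SD, n = 3 each).

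Clock and Nr1d1 kept their calls when any library was left out and under every other setting tried. The difference of Clock ranged from 0.42 to 0.45 when any 1 library was left out (limma adjusted p from 0.000463 to 0.00062), and that of Nr1d1 from 0.20 to 0.24 (adjusted p from 0.00427 to 0.0111).

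**Figure D5:**
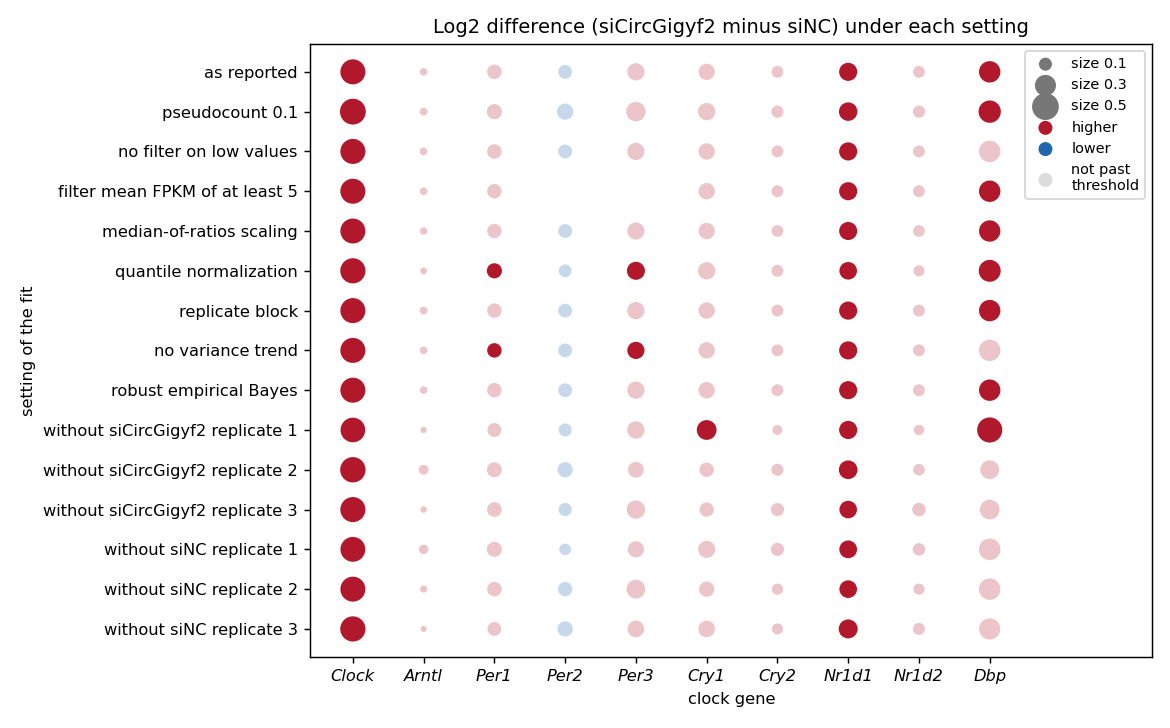
Log2 difference, siCircGigyf2 minus siNC, of each clock gene under each processing alternative. Point area shows the size of the difference, colour its direction and pale points an adjusted p above 0.05 by limma, and Per2 and Per3 were not tested with a minimum of 5 FPKM. Clock and Nr1d1 passed under all of them, and Dbp lost its call in 7.

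Several facts of the libraries bear on these values. The siRNA target has no row of its own, and Gigyf2, whose row pools linear and circular RNA, fell slightly to 21.4 ± 0.330 FPKM in siCircGigyf2, against 23.2 ± 0.0749 FPKM in siNC (SD, n = 3 each; difference -0.11, limma adjusted p = 0.0287), a call lost when any library other than siCircGigyf2 replicate 1 was left out (0.0655 to 0.0845). FPKM summed to between 604881 and 624645 in siCircGigyf2 libraries and between 578627 and 601552 in siNC libraries. The number of fragments was not given, and steps between low values placed siCircGigyf2 libraries at 0.802 to 0.914 and siNC libraries at 0.953 to 1 of the depth of siNC replicate 1. Of 12 catecholaminergic markers, 11 had a mean of at least 1 FPKM, with Ddc below it, and their sum ran from 1306 to 1349 FPKM in siCircGigyf2 and from 1406 to 1435 FPKM in siNC. Most of that sum is Chgb, at 979 ± 17.3 FPKM in siCircGigyf2 and 1081 ± 20.6 FPKM in siNC (SD, n = 3 each). Of the 11 catecholaminergic markers tested, 5 fell (Dbh, Phox2a, Gata2, Chga and Chgb), 2 rose (Hand2 and Slc18a1) and 4 did not pass. Over all genes tested 18.7% were lower and 19.5% higher. Means of at least 1 FPKM were reached by 0 of 5 astrocyte and 0 of 5 microglial markers. They were reached by 1 of 5 oligodendrocyte markers (Cnp) and by 2 of 5 fibroblast markers (Col1a1 and Pdgfra). Mag, Col1a2 and Col3a1 were among the markers at 0 in all libraries. Col1a1 averaged 1.47 ± 0.198 FPKM in siCircGigyf2 and 0.924 ± 0.116 FPKM in siNC (SD, n = 3 each). It passed the filter only through the group where it was high, so its test is not read. The part that these shifts have in the clock gene values was not tested.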

How the data were processed

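The deposited values are the authors' FPKM, in 1 table of gene symbols by libraries. The build was mm9, per the submitters' processing notes, and the aligner, quantifier, annotation and strand handling are not given in the sources used here. Columns were matched to samples by title. The 10 clock genes, the pathway lists and the tests were chosen with earlier results of these data known.

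Genes averaging 1 FPKM or more were tested two-sided on log2(FPKM + 1) without covariates, using R 4.3.3 and limma 3.58.1 (trended empirical Bayes, Benjamini-Hochberg over all genes tested, threshold 0.05). The test was checked on simulated data. Named genes are the 10 clock genes, up to 4 genes past the threshold by smallest p from each pathway list, all genes of lists of 3 or fewer, Gigyf2 and the 3 genes nearest to Clock. Some genes that this rule takes are not reported here, though counts of their lists include them. Overlapping genes were named after the values were seen.

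No more than 0.00623% of nonzero values were equal between any 2 libraries, so none was counted as a repeat. An FPKM is a share of its library, absolute depth was not given, and no count model was used. Tried instead were no filter, a minimum of 5 FPKM, a pseudocount of 0.1, quantile normalization, median-of-ratios scaling, robust or untrended empirical Bayes, a block for the replicate number, and fits without each library. Exon overlaps and 3' UTRs came from GENCODE M21 (GRCm38) and promoters from RefSeq (GRCm38.p6), joined by symbol with Python 3.11.15, numpy 2.4.6 and pandas 2.3.3. No mm9 coordinates were used.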

Additional observations from a re-analysis of the deposited data

How the results depend on the processing

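The count of clock genes past the threshold was 3, and it was 5, all higher, after quantile normalization, which adds Per1 and Per3. Leaving out each library in turn gave 2 to 4 clock genes, 23 to 26 other pathway genes against 27, and 3521 to 3923 genes in all against 4367. Nfil3, which did not pass, ranged from -0.0742 to 0.0370 when 1 library was left out, positive without siCircGigyf2 replicate 3 (0.0370) or siNC replicate 1 (0.0011); the cause was not tested. No clock gene changed sign under any alternative, and of the values of clock genes under alternatives 126 kept their side of the threshold, 5 newly passed and 7, all of Dbp, no longer passed. Deviations of same-numbered libraries correlated at 0.163, -0.02 and 0.0025, and those of differently numbered libraries at -0.119 to 0.131. With 3 libraries per group these values cannot show whether the replicate numbers pair the samples. With the replicate block 3973 genes passed, 2047 higher and 1926 lower, with the same count of 3 clock genes and 26 other pathway genes, and Gigyf2 (adjusted p = 0.0598) and Dhx9 (0.0673) did not. With a pseudocount of 0.1 the differences of the least abundant clock genes moved to -0.17 for Per2 and 0.25 for Per3.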

Other observations

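The 7-mer GCCTACA, which was picked because genes that carry it fell in these same libraries, was looked for in the 3′ UTRs of the clock genes. It was in 0 of the 10, and in 766 of 10560 tested genes with an annotated 3′ UTR, or 7.25%. Of those 766 genes 37.7% were lower in siCircGigyf2 than in siNC, with a median difference of -0.10, against 17.7% of the 9794 genes without it, with a median of 0.0045. None of these shares was adjusted for the length of the 3′ UTR. Among the clock genes that length ran from 288 bases for Nr1d1 to 6831 bases for Clock. Of the other pathway genes only some that the naming rule takes were searched, and Tbl1x, Egr1, Sik1 and Ccrn4l are among those left out. That rule takes most of them because they passed the threshold, so their calls describe a selected set. Within it the 7-mer was present in Rora, Rorb, Tbl1xr1 and Kmt2a. Of these Tbl1xr1 fell, Kmt2a rose, Rorb did not pass and Rora was not tested.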
